A study of Oryza sativa Japonica Group with 6 samples.

Results

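Of 17905 rice genes measured in mature anthers, 114 had no name beyond a locus or clone name and stood clearly lower in the dao mutant than in wild type. They were chosen on that difference itself. Each had a mean wild-type signal of at least 50, every dao array below every wild-type array, and a mean log2 signal on the dao arrays at least 1 below that of wild type, which is a 2-fold limit. A gene with several probe sets was read from the one with the highest mean log2 signal. Signals are deposited array intensities on a linear scale. The median difference over the 114 genes was -1.37 on the log2 scale and ran from -1.0 to -3.0, while over the 9868 genes with a mean wild-type signal of at least 50 the median was 0.08. The rule fixed the sign and the least size of these differences, so they are a description, and nothing here tests the difference between dao and wild type.

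The groups were 3 wild-type arrays and 3 arrays labelled dao, each with RNA of mature anthers at anthesis from field-grown plants of a japonica variety, which the titles call biological replicates 1 to 3. The genotype field reads wild type or dao mutant, and no source used here describes the lesion. A description line speaks of three-week-old seedlings, for the mutant of a seedling called Epi-df, against the tissue, title and source fields of every sample. No source used here says whether plants were pooled.

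DAO, the dioxygenase for auxin oxidation, inactivates the growth hormone indole-3-acetic acid by oxidising it. In rice, dao mutants are known for defects of anther dehiscence, pollen fertility and seed formation. At anthesis an anther holds mature pollen within a dehydrating wall whose inner layer, the tapetum, has already broken down. A LOC symbol is a placeholder that NCBI builds from a gene's number when no name has been assigned, so it carries no word on function. None of the gene tables used here gives these 114 genes a product, and no role is stated for any of them.

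DAO itself had signals of 480, 883 and 686 in wild type and 1551, 1168 and 1391 on the dao arrays, so the dao arrays were the higher ones. With neither the lesion nor the place of the probes in the gene known here, this does not check the labels. The brightest of the cell type markers looked at were EXPB9 and EXPB10, beta-expansins of mature pollen. EXPB9 was at 12682, 12506 and 13036 in wild type and at 11540, 11242 and 11360 on the dao arrays. The pollen marker SUT1, with means of 287 and 317, was dimmer than the tapetum marker RTS, with means of 1663 and 3349. The signal summed over the 5 pollen markers found of 11 was 24061 to 26030 in wild type and 21054 to 23129 on the dao arrays, without overlap. That sum was mostly EXPB9 and EXPB10, and the markers did not all lean one way: ADF2, an actin-depolymerising factor, was at 1018 to 1089 in wild type and 1266 to 1386 on the dao arrays. The 9 tapetum and exine genes found for 12 symbols summed to 2635 to 2727 and to 2575 to 6432, mostly RTS. Among them C6 was at 87.6, 125 and 106 in wild type and at 531, 149 and 438 on the dao arrays. The 3 genes of green tissue found of 10 summed to 1294 to 2707 and to 1051 to 4156. The 4 pistil and ovule genes summed to 515 to 766 and to 761 to 787, mostly MADS58. Among them MADS13 was at 5.49, 6.58 and 6.47 against 29.4, 20.4 and 26.1. DL was at 16.7, 11.7 and 16.5 against 12.9, 15.4 and 13.5. The 3 seed genes found of 5 summed to 650 to 713 and to 743 to 919. Among them RAG was at 164, 195 and 178 against 338, 299 and 288, while GLUA2 overlapped, with means of 494 and 496. Markers near the dim end of the arrays, with means under 10 in both groups, were PTC1, 1 of 2 genes called CP1, CYP703A3, MADS21 and GLUA1. All 27 probe sets of the hybridization spike-ins, RNAs added to every sample before hybridisation, were lower on every dao array (median log2 -0.38), while of 36 poly-A spike-in probe sets 0 were (median log2 -0.15). The part of these shifts in the lower signals described here was not tested, and in bulk tissue fewer cells of a type and less RNA per cell cannot be told apart.

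In both groups array 3 tended to lie between the other 2. Among the 114 genes it did so in 99 in wild type (86.8%) and in 84 on the dao arrays (73.7%), beside 64.6% and 67.4% of the 8359 unnamed genes with a wild-type mean of at least 50. In 52 of the 114 genes wild-type arrays 1 and 2 differed at least 2-fold, and array 3 lay between them in all 52. The same held for all 20 genes whose dao arrays 1 and 2 differed at least 2-fold. It was no property of these genes, since it also held in 472 of the 473 such unnamed genes in wild type and in all 217 on the dao arrays. Whether array 3 is independent of the other 2 was not tested, and if it is not, an SD over 3 arrays rests on fewer than 3 independent samples. Without both arrays numbered 3 the rule gave 112 genes, of which 105 were among the 114, and the median over the 114 was -1.35.

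The 114 genes were 1.36% of the 8359 unnamed genes at that wild-type level, and with the genes that have a name 126 of 9868 met the limits (1.28%). Another 31 unnamed genes were lower by at least 2-fold on average but had overlapping groups, and 32 met both other limits with a wild-type mean under 50. The largest average difference lay among the genes left out for overlap: LOC4339413 had 1028, 15.4 and 435 in wild type and 16.1, 12.5 and 19.1 on the dao arrays. Its wild-type array 2 was as low as the mutant. In 26 of the 31 overlapping genes wild-type array 1 was at least 2-fold above array 2, beside 4.50% of the 8359 unnamed genes. A gene lower by 2-fold on average with overlapping groups must be widely spread within a group. That count is therefore not independent of how the 31 were picked.

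**Figure D1:**
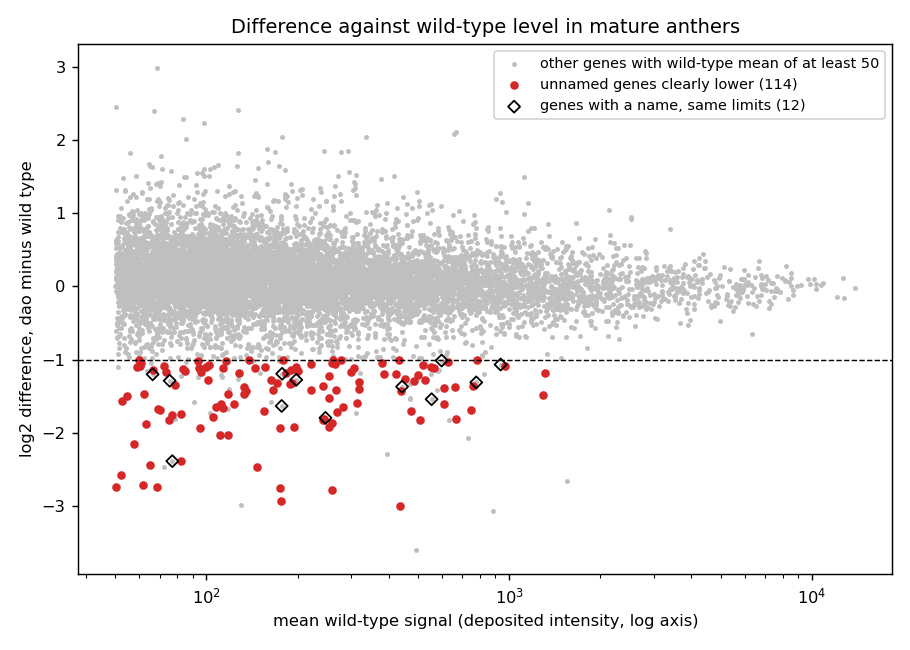
Mean wild-type signal (log axis) against the log2 difference between dao and wild type for genes with a wild-type mean of at least 50, with the 114 unnamed genes as red points, the 12 genes with a name that met the same limits as diamonds and a dashed line at -1. The 114 genes lie between -1.0 and -3.0 and their wild-type means between 50.3 and 1311. Grey points under the line, other than those inside diamonds, had overlapping groups.

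LOC4326253, on chromosome 1, showed the largest difference of the 114. Its signals were 346, 534 and 426 in wild type and 41.2, 76.7 and 48.1 on the dao arrays. The means were 435 ± 94.3 and 55.4 ± 18.8 (SD, n = 3 each), a log2 difference of -3.0, and even the lowest wild-type array stood 4.51-fold above the highest dao array. LOC4348182, on chromosome 10, had the widest gap between the groups. It was at 236, 257 and 285 in wild type and at 36.1, 39.6 and 37.4 on the dao arrays, so both groups were tight and lay 5.95-fold apart at their nearest arrays. Its log2 difference was -2.78, with means of 259 ± 24.8 and 37.7 ± 1.75 (SD, n = 3 each). A dimmer probe set of LOC4348182 had 25.4, 26.7 and 29.0 against 11.3, 13.9 and 11.1 (log2 -1.17), and averaging its probe sets gave a log2 difference of -1.97.

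LOC4338062, on chromosome 5, came next by size. It had 275, 103 and 149 in wild type and 24.6, 16.0 and 24.3 on the dao arrays (log2 -2.93), with a gap of 4.20-fold. LOC4336872, on chromosome 4, had 295, 85.4 and 145 against 28.1, 20.8 and 20.3 (log2 -2.75), and LOC4342716, on chromosome 7, had 106, 35.2 and 64.6 against 7.97, 11.7 and 8.51 (log2 -2.75). In these 3 genes the wild-type arrays were themselves spread at least 2.65-fold, with array 1 highest and array 2 lowest, and the nearest arrays of the groups still lay 3.00-fold apart or more. LOC4326253, LOC4348182 and these 3 had the widest gaps of the 114.

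A gap of at least 2-fold between the lowest wild-type and the highest dao array was seen in 16 of the 114 genes. That was 0.191% of the 8359 unnamed genes at that wild-type level. No others of the 8359 could have one, since such a gap by itself meets the limits on size and overlap. The median gap was 1.46-fold, and in 25 genes it was under 1.2-fold. Further genes with a gap over 2-fold included LOC4347709, on chromosome 9, with 96.6, 128 and 107 in wild type and 41.9, 15.6 and 29.4 on the dao arrays. Others were LOC4337617, on chromosome 5, with 188, 313 and 259 against 58.2, 87.8 and 55.4, and LOC4331113, on chromosome 2, with 67.0, 65.2 and 57.6 against 12.8, 28.7 and 13.8. Wild-type array 1 was not the highest in the first 2 of these, and in LOC4347709 and LOC4331113 the dao arrays were more spread than wild type. LOC4340424 (103, 31.0 and 60.5 against 9.65, 12.03 and 10.3) and LOC4346276 (331, 198 and 248 against 51.6, 96.7 and 67.6) also had gaps over 2-fold, with wild-type array 1 highest in both.

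**Figure D2:**
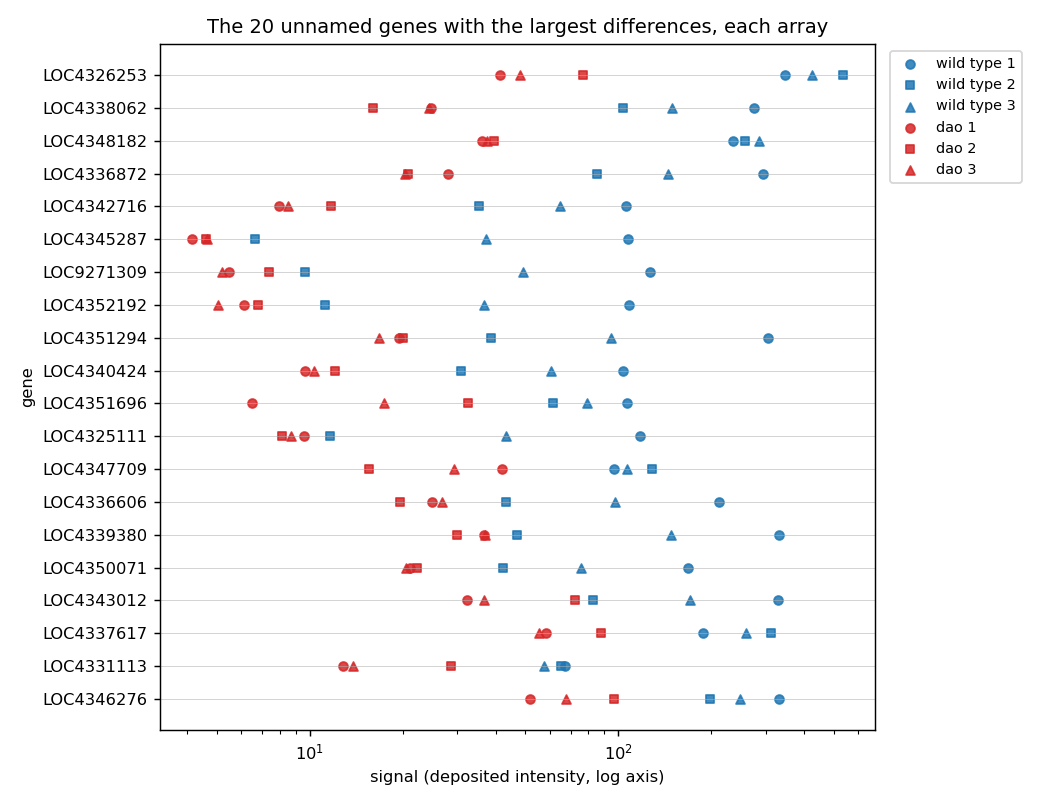
Signal on each of the 6 arrays (log axis) for the 20 unnamed genes with the largest log2 difference, ordered from the largest at the top; blue marks wild type, red marks dao, and the marker shape gives the replicate number. No red point reaches a blue one within a gene, and in 13 of the 20 genes wild-type array 1 was at least 2-fold above wild-type array 2.

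Several large differences rested on a wide spread in wild type. LOC4345287, on chromosome 8, had 107, 6.65 and 37.1 in wild type and 4.16, 4.61 and 4.66 on the dao arrays (log2 -2.74). LOC9271309, on chromosome 1, had 127, 9.61 and 49.0 against 5.47, 7.40 and 5.21 (log2 -2.72), and LOC4352192, on chromosome 12, had 109, 11.2 and 36.8 against 6.13, 6.78 and 5.02 (log2 -2.58). LOC4325111, on chromosome 1, had 118, 11.7 and 43.3 against 9.58, 8.13 and 8.69 (log2 -2.15). In all 4 the wild-type arrays ran in the order 1, 3, 2, and array 2 came within 1.65-fold of the highest dao array. The dao signals, 4.16 to 9.58, lay near or below the arrays' median of 8.82 to 9.33 over all probe sets. Detection calls were not used here, so it is not known whether such signals are above background, and the folds of these genes are uncertain. Of the 114 genes, 5 had a mean dao signal under 10 and 13 under 20.

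The same order of the wild-type arrays was seen in brighter genes. LOC4351294, on chromosome 12, had 305, 38.8 and 94.9 against 19.4, 20.004 and 16.8 (log2 -2.47). LOC4339380, on chromosome 5, had 331, 46.9 and 148 against 36.6, 29.9 and 36.9, LOC4350071, on chromosome 11, had 168, 42.3 and 75.7 against 21.2, 22.2 and 20.6, and LOC4336606, on chromosome 4, had 212, 43.3 and 97.3 against 24.8, 19.5 and 26.9. LOC4343012, on chromosome 7, had 330, 82.6 and 170 against 32.3, 72.4 and 36.7, so that dao array 2 and wild-type array 2 were 1.14-fold apart. LOC4351696, on chromosome 12, had 107, 61.2 and 79.3 against 6.50, 32.5 and 17.3, and here the dao arrays spread more widely than wild type.

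Over the 114 genes, wild-type array 1 was the highest of its group in 67, array 2 in 42 and array 3 in 5. Over the 8359 unnamed genes arrays 1, 2 and 3 were the highest in 54.5%, 40.2% and 5.26%, which is much alike. Wild-type array 1 was at least 2-fold above array 2 in 42 genes (36.8%, beside 4.50% of the 8359), and array 2 was at least 2-fold above array 1 in 10 (8.77%, beside 1.16%). The median of highest over lowest wild-type array was 1.87, against 1.22 over the 8359, and the median SD within groups was 0.46 on the log2 scale, against 0.17. Median log2 differences were -1.55 for the 42 genes, -1.38 for the 10 and -1.28 for the 62 with arrays 1 and 2 less than 2-fold apart. Of the 16 genes with a gap of at least 2-fold, 12 were among these 62. These splits were chosen after the values were seen. The 114 genes were chosen on the same arrays, and a single high wild-type array enlarges the difference that the rule used. The larger spreads and shares of the 114 genes are therefore not independent of that choice.

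Wild-type array 1 was also the highest of its group in the summed signal of green tissue, at 2707 against 1294 on array 2 and 1775 on array 3. On the dao arrays that sum was 4156, 1051 and 3096. The tapetum and exine sum ran in the same order of arrays, at 2727, 2635 and 2678 in wild type and 6432, 2575 and 5326 on the dao arrays, and so did the pollen sum, at 26030, 24061 and 25018 and at 23129, 21054 and 22702. The pistil and ovule sum did not, at 515, 766 and 657 in wild type and 787, 783 and 761 on the dao arrays. Nor did the seed sum, at 667, 713 and 650 and at 761, 919 and 743. On the dao arrays the 114 genes ran the other way from the green tissue, tapetum and pollen sums: dao array 2 was the highest of its group in 78 and dao array 1 the lowest in 68. Over the 8359 unnamed genes dao array 2 was the highest in 34.3% and dao array 1 the lowest in 23.8%. Among the 114, dao array 2 was at least 2-fold above dao array 1 in 19 (16.7%, beside 0.778% of the 8359), and the reverse held in 1, LOC4347709 (0.877%, beside 1.82%). The part of these tissues in the patterns was not tested.

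**Figure D3:**
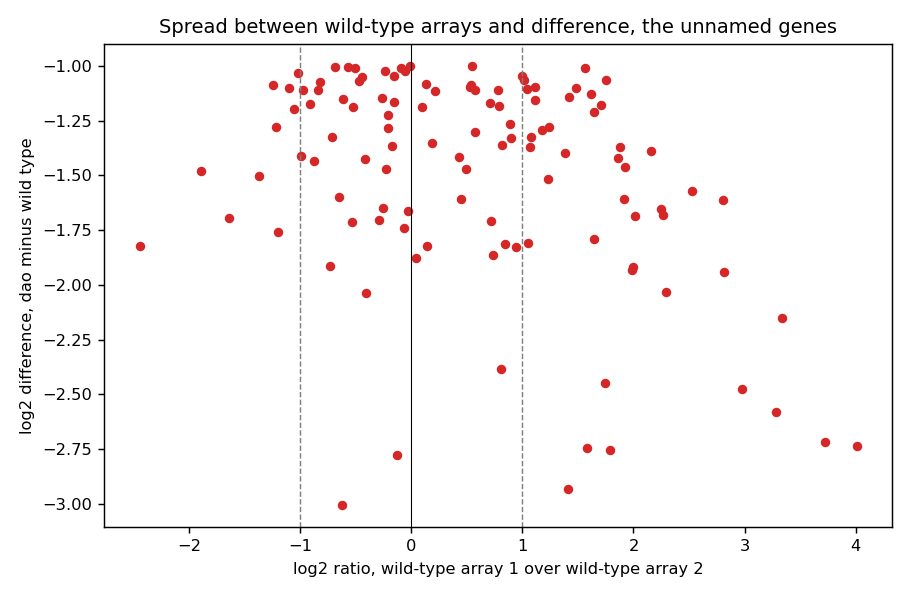
Log2 ratio of wild-type array 1 over wild-type array 2 against the log2 difference between dao and wild type, 1 point per unnamed gene, with dashed lines at 2-fold. The 42 genes right of the right-hand line include most of the largest differences, while LOC4326253 and LOC4348182, near the centre, reach -3.0 and -2.78.

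The array that was left out changed which genes met the rule. Without wild-type array 2 the rule gave 203 genes, 1.78 times as many, with 95 of the 114 among them and a median of -1.48 over the 114. Without wild-type array 1 it gave 123 genes with 80 of the 114, and the median was -1.28. Without dao array 2 it gave 155 genes with 109 of the 114.

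By mean wild-type signal 16 were at 500 or more, 67 between 100 and 500 and 31 under 100, and 2 were among the 1000 brightest genes of wild-type anthers. The median wild-type mean was 176 over the 114 genes and 182 over the 8359 unnamed genes. The shares of the 8359 at those levels were not counted. The brightest of the 114 was LOC4337340, on chromosome 4, at place 729 of all genes, with 2079, 636 and 1217 in wild type and 471, 580 and 508 on the dao arrays (log2 -1.18). LOC4348112, on chromosome 10, had 540, 2009 and 1334 against 404, 408 and 404 (log2 -1.48). Wild-type arrays 1 and 2 thus differed over 3-fold in opposite directions in these 2 genes, while the dao arrays were close together.

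LOC4345926, on chromosome 8, had 1175, 809 and 918 in wild type and 353, 534 and 480 on the dao arrays (log2 -1.09). LOC4342354, on chromosome 7, had 744, 796 and 811 against 335, 480 and 366 (log2 -1.01), and LOC4343453, on the same chromosome, had 725, 820 and 739 against 175, 511 and 287 (log2 -1.37). The last 2 had wild-type arrays close together, and in LOC4343453 the dao arrays were nearly 3-fold apart, with array 2 highest. LOC4333720, on chromosome 3, had 1260, 312 and 678 against 182, 213 and 206, and LOC4338137, on chromosome 5, had 995, 264 and 574 against 181, 168 and 175, so both were highest on wild-type array 1. LOC4335526, on chromosome 4, had 919, 444 and 637 against 99.2, 317 and 192 (log2 -1.81), the largest difference of the 10 brightest. LOC4332232, on chromosome 3, had 942, 449 and 589 against 267, 225 and 240, and LOC4337432, on chromosome 4, had 413, 838 and 636 against 234, 405 and 271, where the nearest arrays of the groups were 1.02-fold apart. None of the 10 brightest had a gap of 2-fold, while their median log2 difference, -1.37, equalled that of all 114.

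Other probe sets for the same genes were read where the array had them. Of the 114 genes, 27 had 39 further probe sets. Of the 11 with a wild-type mean of at least 50, from 10 genes, 10 met the same limits and their median log2 difference with the remaining one was -1.70. Among all further probe sets of unnamed genes at that level 16 of 796 did so (2.01%), but these 11 were from genes already chosen on the same arrays, and probe sets of a gene can share probes. Of 12 further probe sets with a wild-type mean of 10 to 50, 7 were lower by at least 2-fold (-0.08 to -1.87 over the 12), and of 16 under 10 none was (-0.93 to 0.24).

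LOC4338062 had a second probe set with 282, 91.0 and 143 in wild type and 19.5, 14.5 and 18.5 on the dao arrays (log2 -3.15, beside -2.93). Another, dim one had 31.6, 15.7 and 15.8 against 8.05, 7.85 and 8.28 (log2 -1.30). For LOC4346276 the second probe set stood at log2 -2.07, beside -1.86, and 2 more with means near 5 stood at 0.18 and 0.24. The second probe set of LOC4332232, as bright as the first, stood at -1.70, beside -1.37, and that of LOC4345877 at -1.83, beside -1.71. LOC4345877, on chromosome 8, had 597, 362 and 464 against 134, 160 and 134 with its own probe set.

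Another 5 genes also had bright further probe sets, all of them lower. LOC9267037, on chromosome 12, had 394, 265 and 301 in wild type and 133, 139.9 and 112 on the dao arrays with its own probe set (log2 -1.30), and its 2 others stood at -1.75 and -1.37. LOC4341688, on chromosome 6, had 238, 275 and 249 against 87.9, 149 and 96.9 (log2 -1.23), and its second stood at -1.75. In LOC4341688 the wild-type arrays were the tighter group, and dao array 2 was the highest dao array in both genes. LOC4343232, on chromosome 7, had 405, 724 and 559 against 236, 317 and 217 (log2 -1.11, and -1.47 with the second). LOC4333848, on chromosome 3, had 786, 333 and 468 against 207, 212 and 196 (log2 -1.28 and -1.31), and LOC4338430, on chromosome 5, had 87.2, 103 and 90.5 against 34.4, 53.3 and 52.5 (log2 -1.02 and -1.03). The first was highest on wild-type array 2 and the next on array 1. The exception was LOC4345926, whose further bright probe set had 175, 64.8 and 98.3 in wild type and 113, 58.0 and 81.9 on the dao arrays (log2 -0.35), with overlapping groups. Averaging all probe sets of a gene, dim ones included, gave a log2 difference of -0.38 for LOC4345926, -0.88 for LOC4346276 and -0.78 for LOC4333720, all short of the limit. Of the 114 genes, 20 were read from probe sets whose suffix marks a possible match to several transcripts or to near-identical sequence (10 with _x_at, 5 with _s_at and 5 with _a_at). The signal of those 20 may include transcripts of other genes.

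**Figure D4:**
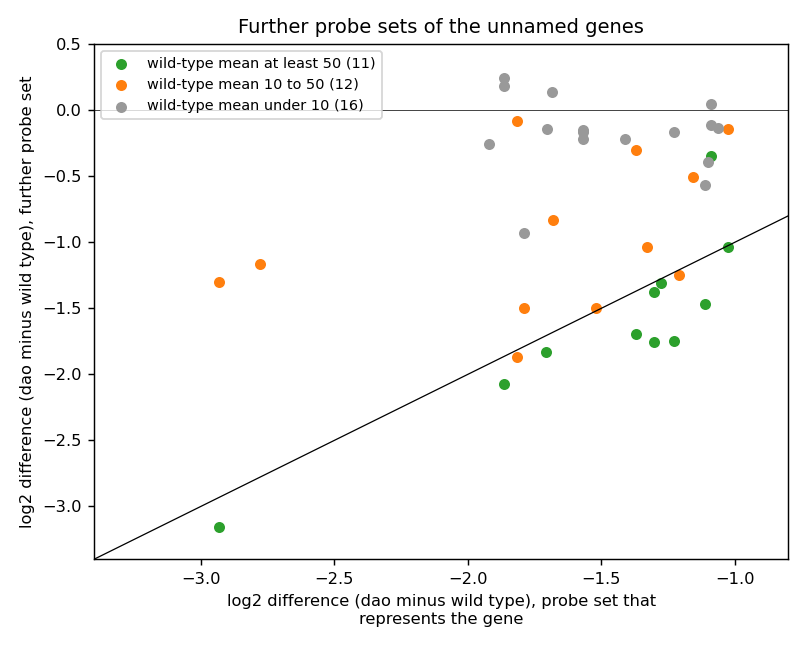
Log2 difference of the probe set that represents each gene against that of each of the 39 further probe sets of 27 unnamed genes, coloured by wild-type mean, with the line of equal values. The bright further probe sets lie at or below -1.03 apart from 1 at -0.35, and the 16 dimmest lie between -0.93 and 0.24.

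The genes lay on all 12 chromosomes. Chromosome 7 held 14, chromosome 12 held 13, chromosome 3 held 12 and chromosome 11 held 5. As a share of the unnamed genes with a wild-type mean of at least 50, that was highest on chromosome 12 (13 of 411, 3.16%) and on chromosome 7 (14 of 622, 2.25%) and lowest on chromosome 1 (9 of 1198, 0.751%). These shares were not tested.

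Among the 114 genes 1 pair were direct neighbours, and no other pair lay within 5 places in the order of genes. LOC4339496, on chromosome 5, had 33.8, 105 and 70.9 in wild type and 13.7, 30.3 and 17.9 on the dao arrays (log2 -1.69). Its neighbour LOC4339497 had 42.7, 101 and 72.9 against 33.9, 32.1 and 30.2 (log2 -1.09). Both ran in the order 2, 3, 1 in wild type, with array 2 at least 2-fold above array 1, as in 10 of the 114.

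Of 62 genes directly beside one of the 114, with a wild-type mean of at least 50 and not among them, the median log2 difference was 0.02. Of these 27 were lower on average (43.5%, beside 39.96% of the 9868 genes). The 2 lowest had the same highest and lowest wild-type array as the gene beside them. LOC4339379, beside LOC4339380, had 180, 31.0 and 96.2 in wild type and 32.8, 16.3 and 27.6 on the dao arrays (log2 -1.73, with overlap). LOC4326919, beside LOC4326920 on chromosome 1, had 191, 393 and 278 against 134, 140 and 139 (log2 -0.997, just short of the limit), while LOC4326920 itself had 22.01, 119.7 and 83.9 against 15.6, 21.3 and 15.0. In the other direction LOC4333719, beside LOC4333720, had 128, 125 and 124 against 421, 377 and 390 (log2 1.65).

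LOC4326919 was also the nearest gene outside the limit of 2-fold. The next were LOC4330106, with 418, 206 and 278 in wild type and 127, 183 and 130 on the dao arrays, and LOC4348116, with 68.9, 112 and 79.4 against 33.6, 57.7 and 40.2. Just inside it were LOC4351881, with 112, 165 and 139 against 78.6, 61.3 and 65.9, LOC4343243, with 76.6, 52.5 and 50.4 against 29.9, 27.6 and 30.6, and LOC4343965. The last had the tightest wild-type values of these, 428, 432 and 433, against 178, 269 and 208, with means of 431 ± 2.48 and 219 ± 46.5 (SD, n = 3 each).

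LOC4351881 was 1 of 3 among the 114 annotated as other RNA rather than protein-coding. The others were LOC9266559, with 99.6, 115 and 89.6 against 28.7, 72.3 and 34.2, and LOC4324543, with 284, 106 and 180 against 89.0, 66.4 and 85.5. Clone names were attached to 5 genes. Besides LOC4343243 these were LOC4346889 (log2 -1.13), LOC4344321 (-1.11), LOC4345434 (-1.10) and LOC4330740 (-1.05). The 73 genes outside the rule for naming had wild-type means of 52.7 to 610, dao means of 13.9 to 245 and log2 differences of -1.01 to -1.83.

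Genes with a name met the same limits in 12 of 1509 cases (0.795%), with a median log2 difference of -1.30 and a median SD within groups of 0.49. Some showed the order of wild-type arrays seen in the unnamed genes. MGD2, a galactolipid synthase of plastid membranes, had 145, 22.6 and 63.6 in wild type and 9.71, 12.01 and 12.5 on the dao arrays, and RAB16D, a dehydrin, had 303, 80.2 and 148 against 42.9, 58.5 and 48.0. HAK20, named for a family of potassium transporters, had 375, 526 and 428 against 90.3, 319 and 169, with dao array 2 highest.

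In the opposite direction, 278 of 8692 unnamed genes with a mean dao signal of at least 50 met the mirrored limits (3.20%), and 96 of 1576 genes with a name did (6.09%). Their median difference was 1.29 for the unnamed genes. Complete separation alone, with no limit on size, was seen with dao lower in 1022 of the 8359 unnamed genes (12.2%) and with dao higher in 2108 (25.2%). The median SD within groups was 0.29 for the 278 genes and 0.46 for the 114. Wild-type array 1 was at least 2-fold above array 2 in 2 of the 278, and array 2 above array 1 in 38. Probe sets with no gene listed met the lower limits in 8.66% of cases and the mirrored ones in 2.70%. None of these differences between the sets was tested.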

How the data were processed

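Per the labels, biotin-labelled RNA, extracted with Trizol, was hybridised to Affymetrix rice genome arrays, 1 per sample. The values deposited by the authors are linear intensity readings, 1 for each probe set of an array. MAS5 appears, with no version, in the submitters' processing notes, and no source used here states the background correction or scaling. Array medians were 8.82 to 9.33, and 8.54% of the values were also found on another array.

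Of 57381 probe sets per array, 22436 had 1 gene, 95 had several and 34663 had none listed, beside 123 controls and 64 reporters. Entrez IDs tied each of the 17905 genes to assembly ASM3414082v1, used for names, chromosomes and neighbours only, and 15448 had no name other than a locus or clone name. Intensities were taken to log2 without scaling, in Python 3.11.15 with pandas 2.3.3. The selection rule was checked on simulated arrays. The number of arrays limits the precision, and SDs measure the spread between samples that may be partly technical.

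The genes, lists and splits were chosen with earlier results of these data known. Genes named with their values on each array were the 20 largest differences, the 10 brightest, the 5 widest gaps, 3 on each side of the 2-fold limit, up to 10 with further probe sets and adjacent pairs. Others were singled out after their values were seen: the overlapping gene, genes with a wide gap, the flanking genes, the other RNAs and the genes with clone or true names. Alternatives were other scalings, log2 of the signal plus 32, averaged probe sets for each gene, other limits and each array left out.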

Additional observations from a re-analysis of the deposited data

How the results depend on the processing

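No gene can change sign when arrays are left out or a number is added before log2, since the rule demanded separate groups, so only sizes and counts are compared. The median log2 difference over the 114 genes, -1.37, ran from -1.02 with log2 of the signal plus 32 to -1.53 without dao array 2, and it was -1.30 over those with a mean dao signal of at least 20. The count of genes that met the rule changed by over 1.5 times in 3 settings: it was 62 with log2 of the signal plus 32, which shrinks the folds of dim genes by construction, 44 with a log2 limit of -1.5, and 203 without wild-type array 2, where the cause was not tested. Leaving out each array in turn gave 110 to 203 genes. Spike-in scaling gave 76, all among the 114, and moved the median of all genes from 0.08 to 0.23 on the log2 scale. That move was smaller than the median difference of the hybridization spike-ins, log2 -0.38. The count under a shift of that full size is not given here. Quantile scaling gave 137 and median scaling 105. Averaging the probe sets for each gene gave 102, a floor of 25 or 100 gave 131 or 83, no condition on overlap 145, and probe sets without the suffixes _x_at, _s_at and _a_at 100. That last setting and the limit on the dao mean were chosen after seeing the data. Of 492 values of named genes under these settings, 24 moved by more than the gene's SD. These were 19 with log2 of the signal plus 32, 4 with averaged probe sets and 1 with spike-in scaling. That SD holds the spread between wild-type arrays, so it is a loose limit for widely spread genes. LOC4345287, with an SD of 1.43, stood at -1.81 without wild-type array 1 and at -3.82 without wild-type array 2, and neither value counted as moved. No paired analysis was made, since the differences come from no test and the titles only number replicates within each group. The mean log2 difference of a gene is the same with arrays paired by number. Planned comparisons of promoter motifs and of protein identity were not run, since no sequences were used here.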

Other observations

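Probe sets with no gene listed for them leaned the other way from genes. Of 3545 such probe sets with a wild-type mean of at least 50, 307 met the limits used for the unnamed genes (8.66%), while 90 of 3338 with a dao mean of at least 50 met the mirrored limits (2.70%). Among genes without a name those shares were 1.36% and 3.20%. The 2 kinds of probe set name differed: with names that start with OsAffx 183 of 1432 were lower (12.8%), and with names that start with Os. 124 of 2113 (5.87%). The median log2 difference over the 3545 was -0.15, against 0.07 over the 8359 unnamed genes. What transcripts these probe sets measure is not known here, and none of these shares was tested.

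The 307 were chosen with the same limits on the same arrays as the 114 genes. Low dao signals follow from those limits, and a single high wild-type array enlarges the difference that they use. A likeness between the 2 sets is therefore not independent of that choice. With that limit, the 307 showed the array pattern of the 114 genes. Their median signals were 201, 122 and 147 in wild type and 43.3, 62.9 and 50.1 on the dao arrays, beside 223, 134 and 162 and 48.9, 71.0 and 57.4 for the 114. Array 3 lay between the other 2 in 86.3% in wild type and in 72.0% on the dao arrays. Those shares over all probe sets with no gene listed are not given here. The lowest of the 307 had 1509, 202 and 757 in wild type and 37.9, 26.8 and 35.6 on the dao arrays. Its log2 difference was -4.21.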
